A study of Homo sapiens with 6 samples.

Results

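The 10 genes described here encode secreted factors that act on blood vessels, 2 of the receptors that bind them, and the stanniocalcins: VEGFA, VEGFB, VEGFC, PGF, ANGPTL4, ADM, STC1, STC2, FLT1 and NRP1. They were taken by gene symbol from the 17631 genes listed for each library, and all 10 were found. They were chosen by their measured TPM in these same libraries, with vehicle and PDBAG1 compared, including the contrast between the genes that were higher after treatment and ADM, which was not. Their differences between the groups are therefore given as a description, without a test. The RNA came from the human line MDA-MB-231, which was established from a triple-negative breast cancer (without oestrogen receptor, progesterone receptor or HER2), although the labels also name breast cancer tissue as the source, in 6 libraries: 3 from cells given vehicle and 3 from cells given 30 µM PDBAG1, each for 24 h. PDBAG1 is a synthetic peptide with a sequence from the protein GPD1 and a cell-penetrating part, which the study describes as binding the mitochondrial protein C1QBP. All cells were grown in serum-containing medium at normal oxygen. The data describe a single line without vessels, and no source states whether the 3 libraries of a group came from separate cultures, so the spread between them may be technical.

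VEGFA is the main growth signal for blood vessels, and its relatives VEGFB, VEGFC and PGF bind overlapping sets of receptors: VEGFA, VEGFB and PGF bind FLT1, and VEGFC acts mainly through FLT4 on lymphatic vessels. NRP1 is a co-receptor that lacks a kinase and also binds class 3 semaphorins. ADM encodes adrenomedullin, a vessel-relaxing peptide, ANGPTL4 encodes a secreted inhibitor of lipoprotein lipase, and STC1 and STC2 encode glycoprotein hormones that inhibit the pappalysin proteases. In many cell types VEGFA, ANGPTL4, ADM and STC1 are induced by the hypoxia-inducible factors (HIFs), which bind DNA at a short element with the core ACGTG or GCGTG.

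The values were TPM, transcript abundances scaled for gene length and library total, so that levels of different genes can be set beside each other, but keep no record of sequencing depth. Between 12392 and 12611 genes per library reached a TPM of 1. Log2 differences between 2 libraries had an SD over genes of 0.14 to 0.18 within a group and of 0.28 to 0.30 between groups, and no library stood apart. The markers of the line were present, with VIM, which encodes vimentin, at 4174 TPM or more in every library. Of 6 genes expected to be low, 3 stayed under 1 TPM in every library, among them the progesterone receptor gene PGR at 0.06 TPM or less. The other 3, ESR1, EPCAM and GATA3, were above 1 TPM in every library. Of 9 endothelial marker genes, 6 stayed under 1 TPM in every library, among them CDH5, VWF, CLDN5 and ERG. The endothelial list summed to 215 to 222 TPM with vehicle and 264 to 293 TPM with PDBAG1, nearly all of it from ESAM, an adhesion molecule gene that tumour cells can express too. The leukocyte list summed to 258 to 273 TPM with vehicle and 313 to 336 TPM with PDBAG1, nearly all of it from CD68, which tumour cells also express, and that of fibroblasts to no more than 6 TPM with vehicle and to 6.8 to 7.53 TPM with PDBAG1. The part of these marker differences in the results was not tested. In the comparison across all genes (limma on log2(TPM + 1), 12582 genes that reached 1 TPM in no fewer than 3 libraries), 360 genes were higher and 60 lower with PDBAG1 by at least 1.5-fold and with a p below 0.05 after Benjamini-Hochberg adjustment. Under quantile normalization these counts were 287 and 94, so that 75.3% rather than 85.7% of the calls were higher.

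To show where HIF-type core letters lie near these genes, ACGTG was searched on both strands in the 1500 bases before the RefSeq gene start (GRCh38.p14 table, sequence from GRCh38). The RefSeq promoter table had an entry for 7 of the 10 genes, namely ADM, ANGPTL4, FLT1, PGF, STC2, VEGFB and VEGFC. The letters occurred in 6 of these 7, all except VEGFB, and in 59.7% of the 27305 promoters searched in the same way. GCGTG, the other core, was not searched, so it is not known whether VEGFB holds that form. ADM, which was lower with PDBAG1, had 3 matches, as did ANGPTL4, which was higher, and PGF had 4. Where the letters form the palindrome CACGTG they match on both strands and count as 2, as at 1 place each in ANGPTL4, PGF and VEGFC. The windows below show matches of genes that differed in opposite directions. Each is read 5′ to 3′ on the strand that carries ACGTG, the capitals mark those letters, and the position is that of the first matched base on the gene's strand relative to the start. A match is a description of the letters, and no binding was measured. The windows of ADM lie in an intron of SBF2, the ANGPTL4 window at -234 lies in an intron of ANGPTL4 according to GENCODE v44, and those of PGF and VEGFC are intergenic.
ADM at -1190 (chr11:10303868-10303902, plus strand): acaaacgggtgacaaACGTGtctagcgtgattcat
ADM at -850 (chr11:10304208-10304242, plus strand): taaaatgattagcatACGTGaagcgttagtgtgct
ADM at -813 (chr11:10304245-10304279, minus strand): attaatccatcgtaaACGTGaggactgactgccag
ANGPTL4 at -234 (chr19:8363906-8363940, minus strand): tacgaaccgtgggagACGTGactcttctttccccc
PGF at -721 (chr14:74956466-74956500, plus strand): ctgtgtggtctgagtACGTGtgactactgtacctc
PGF at -399 (chr14:74956144-74956178, plus strand): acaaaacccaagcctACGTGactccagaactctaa
VEGFC at -293 (chr4:176793196-176793230, plus strand): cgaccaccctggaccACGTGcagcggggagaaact

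Of the 10 genes, 8 passed the expression filter, and FLT1 and STC2 did not. With PDBAG1, the mean of 7 of the 8 was higher and that of 1, ADM, was lower. As background, 21.7% of all genes tested were higher and 15.9% lower at an adjusted p under 0.05 in limma. STC1, ANGPTL4 and VEGFA differed by 1.5-fold or more, and with this limit added 2.86% of all genes tested were higher and 0.477% lower. The groups did not overlap for 6 of the higher genes and for ADM, against 27.2% of all genes tested for higher and 20.2% for lower values. These counts restate the contrast on which the genes were chosen. The median log2 fold change of the 8 genes was 0.43, and that of all genes tested was 0.03. Because the libraries are bulk samples, a change in the share of cells that express a gene cannot be told apart from a change in RNA per cell.

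**Figure D1:**
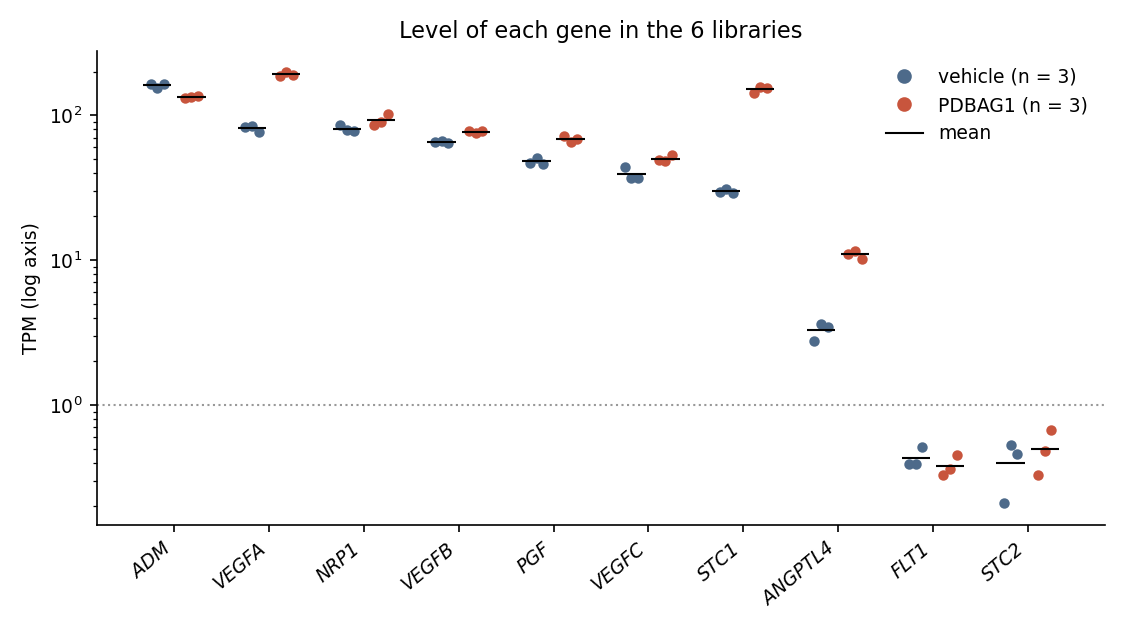
TPM of the 10 genes (log axis) in the 3 vehicle libraries and the 3 PDBAG1 libraries, ordered by the vehicle mean, with a point for each library, a bar for each group mean and a dotted line at 1 TPM. STC1 moves from 29.7 to 151 TPM and VEGFA from 81.2 to 191 TPM, ADM moves down from 161 to 133 TPM, and FLT1 and STC2 stay under 1 TPM.

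Among the VEGF ligands, VEGFA (chr6:43770184-43786487, GRCh38, GENCODE v44, plus strand, 8 exons) had the largest difference. Its vehicle libraries held 82.8, 84.4 and 76.4 TPM and its PDBAG1 libraries 187, 198 and 189 TPM. The highest vehicle library was thus far under the lowest PDBAG1 library. The group means were 81.2 ± 4.22 and 191 ± 5.42 TPM (SD, n = 3 each), a ratio of 2.36, and the log2 fold change was 1.23 (standard error 0.05). This difference was higher than that of 99.7% of the genes tested. An antisense lncRNA, ENSG00000272114, shares 188 exonic bases with VEGFA, and since use of the strand in counting is not stated, their reads may not be separated.

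PGF, which encodes placental growth factor, a ligand of FLT1 (chr14:74941834-74955626, minus strand), came next among the ligands. It was at 46.9, 50.8 and 46.3 TPM in the vehicle group and at 71.9, 65.2 and 68.6 TPM with PDBAG1, without overlap. The log2 fold change was 0.51 (standard error 0.06), a ratio of means of 1.43. VEGFC, the lymphatic vessel factor (chr4:176683538-176792922, minus strand), was at 44.1, 36.5 and 37.1 TPM in the vehicle group and at 48.8, 48.4 and 53.0 TPM with PDBAG1. Vehicle replicate 1 lay nearest to the PDBAG1 libraries. The log2 fold change was 0.35 (standard error 0.07) with all libraries, 0.43 without that one and 0.30 to 0.37 without any other. VEGFB, a FLT1 ligand linked to fatty acid handling (chr11:64234584-64239264, plus strand), was the most even of the ligands. It was at 65.3, 66.4 and 63.9 TPM in the vehicle group and at 77.2, 75.1 and 77.3 TPM with PDBAG1. The libraries of each group lay within a narrow band, and the log2 fold change of 0.23 (standard error 0.04) stood against a ratio of means of 1.17.

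The unequal differences changed the makeup of the VEGF ligand transcripts. The sum of VEGFA, VEGFB, VEGFC, PGF and VEGFD was 239, 238 and 224 TPM with vehicle and 385, 386 and 388 TPM with PDBAG1. VEGFD contributed at most 0.13% of this sum in any library. VEGFA made up 34.7 ± 0.64% of the sum with vehicle and 49.5 ± 1.41% with PDBAG1 (n = 3 each, SD). The share of VEGFB was 27.9 ± 0.63% with vehicle and 19.8 ± 0.31% with PDBAG1, although its own level was higher. The ratio of VEGFA to VEGFB was 1.25 ± 0.04 under vehicle and 2.50 ± 0.11 under PDBAG1 (n = 3 each, SD).

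**Figure D2:**
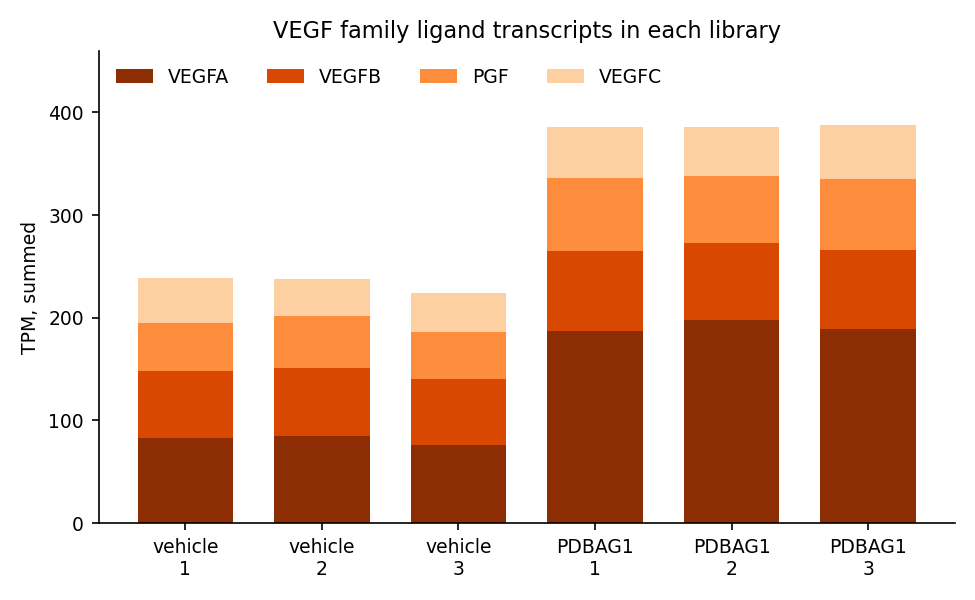
Summed TPM of VEGFA, VEGFB, PGF and VEGFC in each of the 6 libraries, with a bar for each library starting at 0 and a segment for each gene. The VEGFA segment spans 76.4 to 84.4 TPM in the vehicle libraries and 187 to 198 TPM in the PDBAG1 libraries, while the VEGFB segment has group means of 65.2 and 76.5 TPM.

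The receptors of these ligands were at very different levels. FLT1, the receptor for VEGFA, VEGFB and PGF (chr13:28300346-28495145, minus strand), was at 0.39, 0.39 and 0.51 TPM in the vehicle group and at 0.33, 0.36 and 0.45 TPM with PDBAG1. The groups overlapped, and at this level, under the expression filter, no difference could be assessed. Together with KDR and FLT4, the other VEGF receptor kinases, FLT1 summed to 2.35 to 2.80 TPM with vehicle and 2.68 to 3.00 TPM with PDBAG1. NRP1, the co-receptor (chr10:33177492-33336262, minus strand), was at 85.8, 78.6 and 77.8 TPM in the vehicle group and at 85.0, 90.1 and 102 TPM with PDBAG1. The lowest PDBAG1 library lay under the highest vehicle library. The log2 fold change was 0.19 (standard error 0.06). It was 0.12 without PDBAG1 replicate 3, 0.17 without vehicle replicate 2 and 0.16 without vehicle replicate 3. Leaving out any other library gave 0.21 to 0.25. NRP1 shares 332 exonic bases with an antisense lncRNA, ENSG00000238258.

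ANGPTL4 (chr19:8363289-8374370, plus strand) had the second largest log2 fold change of the set, from a low level. It was at 2.78, 3.61 and 3.47 TPM in the vehicle group and at 11.0, 11.5 and 10.2 TPM with PDBAG1. Every PDBAG1 library was well above the vehicle libraries. The means of 3.29 ± 0.44 and 10.9 ± 0.67 TPM (SD, n = 3 each) had a ratio of 3.33. The log2 fold change was 1.48 (standard error 0.10) on the log2(TPM + 1) scale, which understates changes of low genes, and 1.71 with a pseudocount of 0.1.

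The stanniocalcins were opposite cases. STC1 (chr8:23841929-23854806, minus strand, 4 exons) was at 29.6, 30.7 and 28.9 TPM in the vehicle group and at 142, 157 and 153 TPM with PDBAG1. The means were 29.7 ± 0.94 and 151 ± 7.88 TPM (SD, n = 3 each), 5.08 times higher with PDBAG1, and the log2 fold change was 2.30 (standard error 0.05). On the log2(TPM + 1) scale no gene tested had a larger value, with PTGS2 next at 2.29, but with a pseudocount of 0.1 STC1 (2.34) ranked 5 among all genes tested, and without vehicle replicate 1 it (2.30) ranked 2 behind PTGS2 (2.34). STC2 (chr5:173314723-173328447, minus strand), which also has 4 exons, was at 0.21, 0.53 and 0.46 TPM in the vehicle group and at 0.33, 0.48 and 0.67 TPM with PDBAG1. Its groups overlapped under the expression filter, and no difference was detectable at these values. In these cells the stanniocalcin transcripts were thus almost entirely STC1 in both groups.

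ADM (chr11:10305073-10307397, plus strand, 4 exons) ran against the other genes. It was at 165, 154 and 164 TPM in the vehicle group and at 130, 133 and 135 TPM with PDBAG1. Every PDBAG1 library was under every vehicle library, by means of 161 ± 6.38 and 133 ± 2.30 TPM (SD, n = 3 each). The log2 fold change was -0.28 (standard error 0.04), a ratio of 0.825, and 6.87% of the genes tested had a log2 fold change as low or lower. When single libraries were left out, the log2 fold change of ADM stayed between -0.31 and -0.26. Among 25 other genes known as HIF targets, all 25 were higher at an adjusted p under 0.05 in limma, beside 21.7% of all genes tested. Their median log2 fold change was 1.02, and the highest, 2.18, was that of NDRG1. This list was chosen with earlier results of these data known, so the count does not describe HIF targets at large. CA9, 1 of the 25, passed the expression filter only through the PDBAG1 libraries. It was at 0.28, 0.40 and 0.20 TPM with vehicle and at 1.31, 1.33 and 1.08 TPM with PDBAG1. Its place among the higher genes is therefore not a separate result. ADM and NRP1 lay under all 25 and STC1 above all 25. VEGFA was above 19 of them, ANGPTL4 above 21 and PGF above 4, while VEGFB and VEGFC were each above 1.

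**Figure D3:**
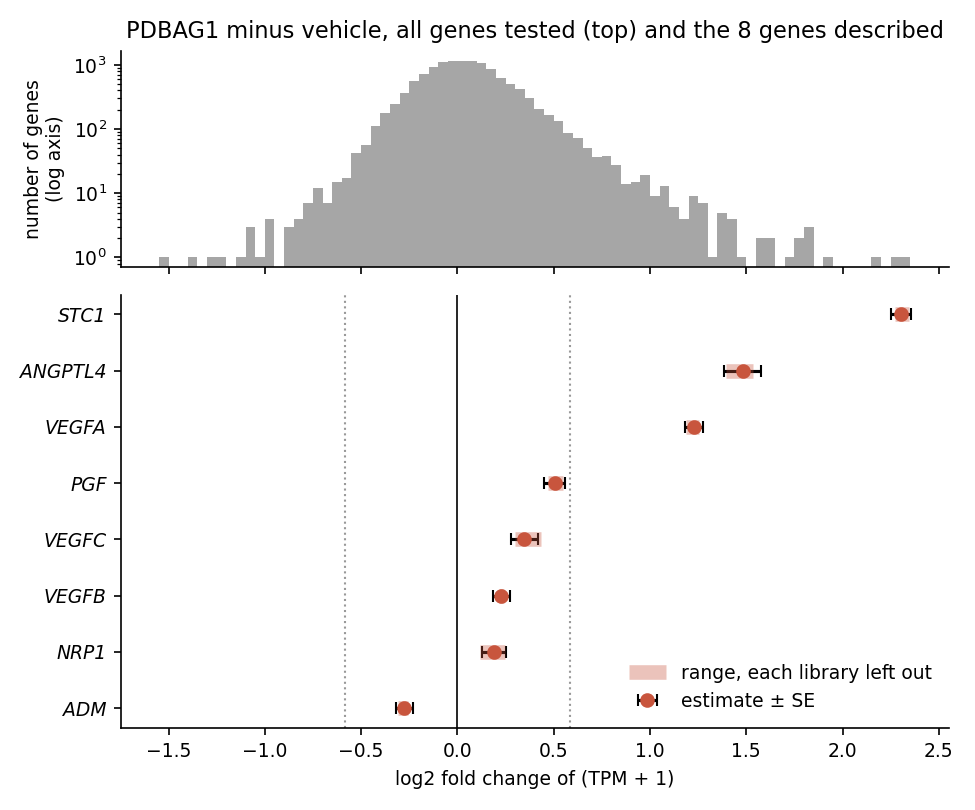
Log2 fold change of TPM + 1 (PDBAG1 minus vehicle): the top panel is a histogram of the 12582 genes tested with a log axis of counts, and the lower panel gives the 8 genes with their standard errors and, as a pale band, the range when each library was left out. STC1 at 2.30, ANGPTL4 at 1.48 and VEGFA at 1.23 lie beyond the dotted 1.5-fold lines, and ADM at -0.28 is the only one of the 8 to the left of 0.

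The order of levels differed between the groups. With vehicle, ADM was the most abundant of the 10 genes at 161 TPM, followed by VEGFA and NRP1, whose libraries overlapped (76.4 to 84.4 and 77.8 to 85.8 TPM), and then by VEGFB, PGF, VEGFC, STC1 and ANGPTL4, each without overlap with the next. With PDBAG1, VEGFA was first at 191 TPM, STC1 second at 151 TPM and ADM next at 133 TPM, all without overlap. FLT1 and STC2 were last in both groups and overlapped with each other. STC1 thus moved from the seventh to the second place, and the ratio of STC1 to ADM was 0.18, 0.20 and 0.18 in the vehicle libraries and 1.09, 1.19 and 1.14 in the PDBAG1 libraries. The 10 genes summed to 509 ± 12.6 TPM under vehicle and 774 ± 17.98 TPM under PDBAG1 (SD, n = 3 each). STC1 took 5.84 ± 0.21% of this sum with vehicle and 19.5 ± 0.69% with PDBAG1, whereas ADM took 31.6 ± 1.25% and 17.1 ± 0.13% (SD, n = 3 each).

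The genes with the most similar profile over the 6 libraries were found by the root-mean-square distance between log2(TPM + 1) values centred on each gene's mean. For STC1 these were PTGS2, the inducible prostaglandin synthase gene (distance 0.05), NDRG1 (0.09) and BHLHE40 (0.20), so that few genes came near it. For VEGFA they were ANKZF1, ERRFI1, which encodes an inhibitor of EGFR, and BNIP3, a mitophagy receptor gene, at distances of 0.04 to 0.05. The nearest to ADM were YEATS4, SNRPA1 and HCCS, at distances of 0.01 to 0.02, all with small decreases (log2 fold changes -0.26, -0.26 and -0.28). SNRPA1 encodes a spliceosomal protein and HCCS the enzyme that attaches haem to cytochrome c. With 6 libraries in 2 groups these distances mostly reflect the group difference.

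The question of how far the other genes of these pathways differed was addressed with a list of 96 genes in 9 roles. Of these, 92 were listed in the files and 53 passed the expression filter, while CALCA, CALCB, RAMP3 and HGF were not analysed here. In limma, 21 were higher and 9 lower with PDBAG1 at an adjusted p under 0.05, 39.6% and 17.0% of the 53 beside 21.7% and 15.9% of all genes tested. Their median log2 fold change was 0.20, beside 0.03 for all genes. Of the 53 genes, 4 were higher and 2 lower by 1.5-fold or more at an adjusted p under 0.05. Of all genes tested, 2.86% were higher and 0.477% lower by both limits. Of the 30 genes past the test, 20 passed in each of the 6 fits that left out a library. The counts by role below rest on few genes each and are not read as results about a role. Their background is the 21.7% higher and 15.9% lower of all genes tested.

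**Figure D4:**
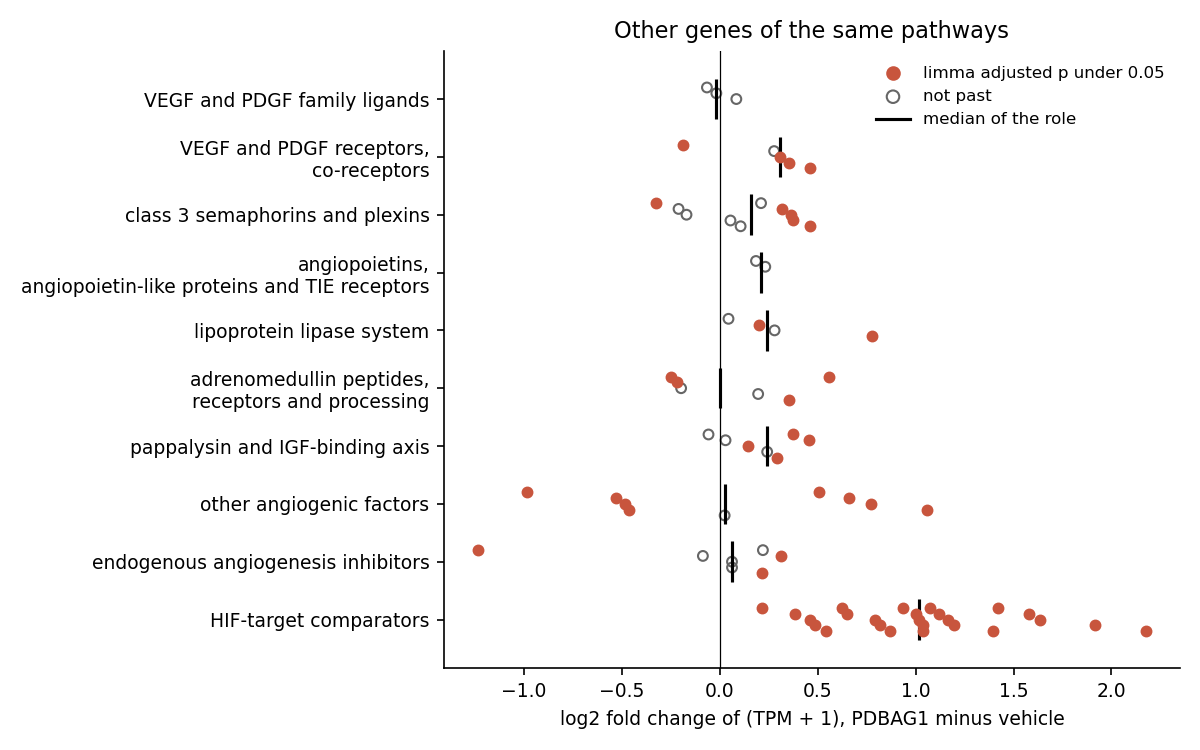
Log2 fold change of TPM + 1 (PDBAG1 minus vehicle) of the tested pathway genes, a point for each gene in rows by role, filled where the limma adjusted p was under 0.05, with a bar at the median of the role. THBS1 at -1.24 and CCN2 at -0.98 are the lowest points, ANG at 1.06 is the highest outside the HIF-target comparators, and all 25 comparators lie to the right of 0.

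Of the other VEGF and PDGF ligands, VEGFD and PDGFB were under 1 TPM in every library, and none of the 3 tested passed. PDGFC, a PDGF receptor ligand and the most abundant of them, was at 39.4 ± 1.22 TPM under vehicle and 39.0 ± 3.91 TPM under PDBAG1 (SD, n = 3 each). Among the receptors and co-receptors 3 were higher and 1 was lower of 5 tested, beside 21.7% and 15.9% of all genes tested. NRP2, the second neuropilin, rose from 4.05 ± 0.53 to 5.93 ± 0.27 TPM (n = 3 each, SD), a log2 difference of 0.46 (standard error 0.10) at an adjusted p = 0.00242 in limma. NRP1 stood at 20.1 ± 1.96 times the level of NRP2 with vehicle and at 15.6 ± 1.74 times with PDBAG1. GPC1, a heparan sulphate proteoglycan, rose by a log2 fold change of 0.35. PDGFRB and SDC2 were the other 2 past the test, and each lost its call when some single libraries were left out: PDGFRB (0.27 to 0.37) without any single library other than vehicle replicate 1, and SDC2 (-0.22 to -0.14) without vehicle replicate 1 or 2 or PDBAG1 replicate 2. Of the 10 class 3 semaphorin and plexin genes tested, which encode the other ligands of neuropilins and their signalling partners, 4 were higher and 1 was lower. SEMA3B rose from 22.7 ± 1.28 to 31.7 ± 1.09 TPM (n = 3 each, SD), a log2 difference of 0.46 at an adjusted p = 6.35e-05 in limma, and SEMA3F and PLXNA3 rose by 0.36 and 0.38 on the log2 scale. SEMA3E, the lower one (log2 fold change -0.33), was past the test in 2 of the 6 fits that left out a library, and not without vehicle replicate 1 or 3 or PDBAG1 replicate 1 or 2, with log2 fold changes of -0.41 to -0.27. SEMA3C, the most abundant, was at 85.9 ± 5.34 and 76.4 ± 7.47 TPM (n = 3 each, SD), a log2 difference of -0.17 at an adjusted p = 0.0619 in limma. It was past the test under median-of-ratios scaling (-0.20), under quantile normalization (-0.17) and without PDBAG1 replicate 3 (-0.23), and was at -0.09 without PDBAG1 replicate 1.

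The angiopoietins ANGPT1, ANGPT2 and ANGPT4 and the receptor TEK were under 1 TPM in every library, as were 10 of the 12 genes of that role. ANGPTL2 at 1.97 ± 0.25 and 2.37 ± 0.13 TPM (SD, n = 3 each) was the most abundant of them, and neither it nor TIE1 passed. ANGPTL4, with group means of 3.29 and 10.9 TPM, was above each of the genes of this role. Its target lipase LPL was at 0.23 to 0.44 TPM. LIPG, which encodes endothelial lipase and is also held back by ANGPTL4, rose from 1.11 ± 0.18 to 2.61 ± 0.18 TPM (n = 3 each, SD), a log2 difference of 0.78 (standard error 0.11) at an adjusted p = 0.000131 in limma, and of 1.17 with a pseudocount of 0.1. SEL1L, which encodes part of the machinery that lipase folding needs, was past the test at a log2 fold change of 0.20 but not without vehicle replicate 2 or 3 or PDBAG1 replicate 2 or 3 (0.15 to 0.28). LMF2, a lipase maturation factor gene, was at 50.5 to 56.7 TPM with vehicle and 53.4 to 56.4 TPM with PDBAG1 and did not pass.

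Around ADM, 2 of the 6 genes tested were higher and 2 were lower, beside 21.7% and 15.9% of all genes tested. CALCRL, the adrenomedullin receptor, was at 0.08 TPM or less in every library, and its partner RAMP2 at 0.29 to 1.17 TPM. PAM, the enzyme that amidates and so activates adrenomedullin and other peptides, rose from 53.8 ± 2.34 to 79.6 ± 3.96 TPM (n = 3 each, SD), a log2 difference of 0.56 (standard error 0.05) at an adjusted p = 3.18e-06 in limma, while ADM itself was lower. CRCP, a receptor component also found in RNA polymerase III, fell by 0.22 on the log2 scale. RAMP1, a partner of CALCRL, was at 45.7 ± 3.75 and 38.3 ± 4.52 TPM (n = 3 each, SD), a log2 difference of -0.25, past the test with all libraries but not without vehicle replicate 2 (-0.22) or 3 (-0.21) or PDBAG1 replicate 2 (-0.20) or 3 (-0.21). ADM2, a related peptide gene, was at 2.20 ± 0.18 and 3.08 ± 0.28 TPM (n = 3 each, SD), a log2 difference of 0.35, and lost its call without vehicle replicate 2 (0.32) or PDBAG1 replicate 1 (0.32).

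The pappalysins PAPPA and PAPPA2, the proteases that stanniocalcins inhibit, were at 0.33 to 0.59 TPM and at 0.08 TPM or less. IGFBP4, which encodes a substrate of PAPPA, was abundant, at 958 ± 25.9 TPM under vehicle and 921 ± 23.9 TPM under PDBAG1 (SD, n = 3 each). It did not pass the test (log2 difference -0.06, adjusted p = 0.218 in limma). Of the 7 genes tested in this role 4 were higher and none was lower, beside 21.7% and 15.9% of all genes tested. IGF2R, which clears IGF2, rose from 14.8 ± 0.83 to 20.7 ± 1.72 TPM (n = 3 each, SD), a log2 difference of 0.46 at an adjusted p = 0.000362 in limma, and the other 3, IGF2, IGF1R and IGFBP6, each lost their call when some single libraries were left out, with log2 fold changes of 0.33 to 0.46, 0.24 to 0.34 and 0.11 to 0.18. IGFBP6 was named after its values were seen.

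Of 9 other angiogenic factors tested, 4 were higher and 4 lower, beside 21.7% and 15.9% of all genes tested. CXCL8, the chemokine interleukin-8, rose from 536 ± 17.7 to 916 ± 20.7 TPM (n = 3 each, SD), a log2 difference of 0.77 at an adjusted p = 2.95e-09 in limma. EFNA1, an Eph receptor ligand, rose from 10.9 ± 0.29 to 17.8 ± 0.94 TPM. ANG, which encodes the ribonuclease angiogenin, was at 7.96, 8.69 and 7.21 TPM in the vehicle group and at 20.03, 22.16 and 12.16 TPM with PDBAG1. The 3 PDBAG1 libraries of ANG were spread widely but all above the vehicle libraries (log2 difference 1.06 with a standard error of 0.16, adjusted p = 0.000161 in limma). ANG shares 93 exonic bases with RNASE4 and 104 with ENSG00000259171 on the same strand, and 203 with the lncRNA EGILA on the opposite strand. Reads of ANG and these genes may thus not be separated. CCN2 and CCN1, matricellular proteins of the same family, fell from 133 ± 0.89 to 66.7 ± 0.15 TPM (log2 difference -0.98, adjusted p = 8.90e-10 in limma) and from 735 ± 18.5 to 509 ± 19.8 TPM (log2 fold change -0.53; SD, n = 3 each). APLN, which encodes the vessel peptide apelin, fell by 0.48 on the log2 scale. EDN1, the other lower one and named after its values were seen, fell by 0.46. Of the 7 inhibitors of angiogenesis tested, 2 were higher and 1 was lower. The lower one was THBS1, which encodes thrombospondin-1 and fell from 48.6 ± 2.75 to 20.1 ± 1.85 TPM (n = 3 each, SD), a log2 difference of -1.24 (standard error 0.07) at an adjusted p = 2.05e-08 in limma. The ratio of THBS1 to VEGFA was 0.60 ± 0.02 under vehicle and 0.11 ± 0.01 under PDBAG1 (n = 3 each, SD). TIMP3, an inhibitor that blocks VEGFA binding to KDR and the most abundant of the role, was at 183 ± 14.7 and 191 ± 15.3 TPM (SD, n = 3 each), at an adjusted p = 0.453 in limma. ADAMTS1, a protease with antiangiogenic fragments, rose by a log2 fold change of 0.31, and SPRY2, a feedback inhibitor of receptor signalling, was past the test at 0.22 but not without PDBAG1 replicate 2 (0.19) or 3 (0.18). Among the other named genes NRP2, PLXNA3, ADM2, CCN2, THBS1, CRCP and BHLHE40 share exonic bases with a gene on the opposite strand. CRCP, IGF2 and NDRG1 share them with another on the same strand. The values of all these genes are uncertain to that extent.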

How the data were processed

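The mRNA libraries, sequenced on the BGISEQ-500 platform, were mapped by the authors with HISAT2 to GRCh38 (p13 in the methods, GRCh38.p12 in the submitters' processing notes, which also name Bowtie2 2.2.5, RSEM 1.2.12 and HISAT2 2.0.4). The methods describe FPKM, whereas the deposited values are TPM, given to 2 decimals for 17631 genes. The annotation release, strand use and any scaling between libraries are not given in the sources used here. TPM keeps no depth, so the counting error is unknown and precision rests on 3 libraries per group.

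Libraries were grouped by their titles. The 12582 genes that reached 1 TPM in no fewer than 3 libraries were tested as log2(TPM + 1) with limma 3.58.1 in R 4.3.3 (lmFit, eBayes with a variance trend) and Benjamini-Hochberg adjustment over all of them. The steps were tested on simulated data. The members and the gene lists were chosen with earlier results of these data known, and no set test was run. Named genes were the 10 members, for each role up to 3 of the largest rises and falls past the test and the most abundant gene, and the 3 genes nearest in profile to STC1, VEGFA and ADM. Positions are those of GENCODE v44. Alternatives were another pseudocount, other filters, other scalings, other fold limits, a replicate block and leaving out each library.

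Of the marker lists, the 7 genes of the line were all present. Of its 6 low markers 3 stayed under 1 TPM. ESR1 was at 1.96 to 3.38 TPM, GATA3 at 2.73 to 3.88 TPM and EPCAM at 3.92 to 5.78 TPM. The adipocyte list summed to 0.81 to 1.16 TPM with vehicle and 1.13 to 1.62 TPM with PDBAG1.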

Additional observations from a re-analysis of the deposited data

How the results depend on the processing

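All 8 tested members kept their direction under every alternative run. The other filters and the replicate block leave their log2 fold changes unchanged by construction. Leaving out 1 of the 3 libraries of a group cannot move them by more than the spread between libraries. Only another pseudocount or scaling could do so. VEGFB under median-of-ratios scaling (0.19) and ANGPTL4 with a pseudocount of 0.1 (1.71) moved by more than that spread, and the other members did not. The genes called higher (360) and lower (60) became 73 and 7 at a fold limit of 2, and 2736 and 2000 with no fold limit. With a pseudocount of 0.1 they numbered 530 higher and 100 lower, and under quantile normalization 287 higher and 94 lower. With each library left out in turn they ranged from 351 to 425 higher and from 58 to 76 lower. The pathway genes past the test became 4 higher and 2 lower at a fold limit of 1.5, beside 2.86% and 0.477% of all genes tested. Without a fold limit they ranged from 16 to 19 higher and from 6 to 9 lower when libraries were left out. PDGFC (-0.078 to 0.062) and TIMP3 (-0.0020 to 0.13), neither past the test, changed sign in these fits, and the cause was not tested.

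With the replicate number as a block 427 genes were called at the 1.5-fold limit, including all 420 of the fit without it. Of the pathway genes, counted without a fold limit, PDGFRB, SDC2, SEL1L and IGFBP6 lost their calls with the block. ADM2 (0.25), IGF2 (0.28), PDGFRB (0.21) and IGFBP6 lost them under quantile normalization, IGFBP6 also under median-of-ratios scaling, and RAMP1, SDC2, SEL1L, SEMA3E and IGFBP6 without the expression filter. LIPG fell outside the filter that asked for 1 TPM in all libraries. IGF2 was at 0.56 with a pseudocount of 0.1 and IGF1R at 0.19 under quantile normalization. Libraries with the same number had correlations of -0.21, 0.01 and -0.08 in their deviations from the group means, and no source gives the numbers a meaning. Depth is unknown, so values under 1 TPM, such as those of FLT1 and STC2, carry an unknown counting error.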

Other observations

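Chosen after their values were seen, 2 of the 9 endothelial marker genes were well above 1 TPM and higher with PDBAG1. CDH5, VWF, CLDN5 and ERG stayed under 1 TPM in every library. TIE1 did not pass the test (adjusted p = 0.203 in limma). KDR, under the expression filter, had means of 0.83 TPM with vehicle and 0.68 TPM with PDBAG1. PECAM1, which encodes the adhesion molecule CD31, was at 3.97, 4.08 and 3.78 TPM in the vehicle group and at 7.87, 8.91 and 9.15 TPM with PDBAG1 (log2 difference 0.96 with a standard error of 0.09, adjusted p = 2.21e-06 in limma), without overlap. ESAM was at 213 ± 4.07 TPM under vehicle and 268 ± 14.5 TPM under PDBAG1 (n = 3 each, SD), a log2 difference of 0.33 at an adjusted p = 5.87e-05 in limma. Leaving out single libraries gave log2 fold changes from 0.92 to 1.02 for PECAM1 and from 0.30 to 0.38 for ESAM.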
